A study of Mus musculus with 4 samples.

Results

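The 10 genes described here encode receptors of the interleukin-6 (IL-6) cytokine family and the STAT3 response that these receptors switch on, measured in mouse gastrocnemius muscle. They were chosen by symbol as Il6ra, Il6st, Lifr, Osmr, Jak2, Stat3, Socs3, Pim1, Cebpb and Cebpd, and all 10 were found among the 23282 gene rows. The study crossed high-intensity treadmill running (E) with a tumor (T), for which cells of the CT26 mouse colorectal carcinoma line were injected into the tail vein, so the tumor cells spread through the body and were not placed in the muscle. There were 4 groups of CDF1 mice with 1 library each: E-T- or normal control (neither running nor tumor), E+T- or normal exercise, E-T+ or cancer control, and E+T+ or cancer exercise (both running and tumor). The labels give postnatal day 28 for every group, which by the methods is the age at which the mice were obtained, and the methods name male mice throughout. The labels speak of 10 mice per group while the study's text speaks of a representative mouse, so whether a library stands for 1 animal or a pool was not settled.

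Cytokines of the IL-6 family bind a receptor of their own, such as the IL-6 receptor alpha chain, the oncostatin M receptor or the leukemia inhibitory factor receptor, and signal through the shared chain gp130, the product of Il6st. Janus kinases bound to these chains phosphorylate STAT3, which enters the nucleus and turns on genes that include its own, the brake Socs3, the kinase gene Pim1 and the C/EBP transcription factors Cebpb and Cebpd. In muscle the pathway is known both from exercise, since contracting fibers release IL-6, and from the wasting that accompanies cancer.

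Values are normalized read counts from 3′ mRNA sequencing. Reads of this method fall near the ends of transcripts. Differences are described between libraries, and the read counts of different genes are not taken as relative amounts of their transcripts. The libraries held 10647511 to 13226143 reads, and 3 reads, the floor chosen here, corresponded to 2.27e-05% to 2.82e-05% of a library. Every group has 1 library, so no difference below has a replicate check and no p-value is given. The error printed is the 95% Clopper-Pearson interval of the reads in the 2 libraries compared, turned into a log2 ratio, and it covers counting error only. A gene was counted as changed when it differed at least 2-fold and reached 4 normalized reads in either library of the comparison. The fold and the minimum are those the study names, and asking the minimum of either library was chosen here.

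All 10 markers of skeletal muscle fibers were detected in every library, with summed levels between 911904 and 1586700 normalized reads, lowest in cancer control. In bulk muscle, fewer cells of a type and less RNA per cell cannot be told apart. The summed level of 10 macrophage markers was 4531 in E-T-, 4404 in E+T-, 7702 in E-T+ and 7294 in E+T+. The summed level of 10 neutrophil markers was 80.1, 163, 2653 and 1888 in the same order, with S100a8 and S100a9 giving most of the reads, while Elane had 0 reads in every library and Mpo had 4 reads in normal exercise and 0 elsewhere. The 7 markers of T and B lymphocytes summed to at most 23.3. Fibroblast markers went the other way, from 122805 in normal control to 48209 in cancer control, and the 8 endothelial markers stayed between 3560 and 4645. Of the macrophage markers, 4 of 10, Cd68, Cd163, C1qa and C1qc, were at least 2-fold higher in E-T+ than in E-T-. In E+T+ against E+T- 3 were, Cd68, Cd163 and Itgam. Among 13197 genes with at least 16 normalized reads in any library, 18.6% and 11.8% were at least 2-fold higher in these comparisons. Csf1r and Adgre1 were lower in both tumor libraries than in both others, though Adgre1 differed without exercise by less than counting error. The part of these cells in the differences of the members was not tested.

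Il6ra encodes the chain that binds IL-6. Its level was 115 normalized reads in E-T-, 73.6 in E+T-, 337 in E-T+ and 331 in E+T+. Both tumor libraries were thus above both libraries without a tumor, and the tumor libraries differed from each other by less than counting error. Il6st, whose product gp130 passes the signal on, stood at 498 normalized reads in E-T-, 787 in E+T-, 834 in E-T+ and 755 in E+T+. Normal control was the low library for Il6st, and no neighboring pair among the other 3 differed beyond counting error. Lifr, the receptor chain for leukemia inhibitory factor, was the flattest of the 10 genes, at 720.1, 700.4, 838 and 779.9 normalized reads in the order above. Its lowest and highest libraries differed by 0.26 on the log2 scale, and no neighbors in its order of levels differed beyond counting error. Osmr, the chain that binds oncostatin M, was at 117 normalized reads in E-T-, 111 in E+T-, 168 in E-T+ and 298 in E+T+. The libraries without a tumor were alike for Osmr within counting error, and cancer exercise was the highest. Osmr and Lifr are neighbors on chromosome 15 of the GRCm38.p6 assembly, at chr15:6813568-6874968 on the minus strand and chr15:7090610-7197489 on the plus strand, 216 kb apart with 3 other annotated genes between them.

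**Figure D1:**
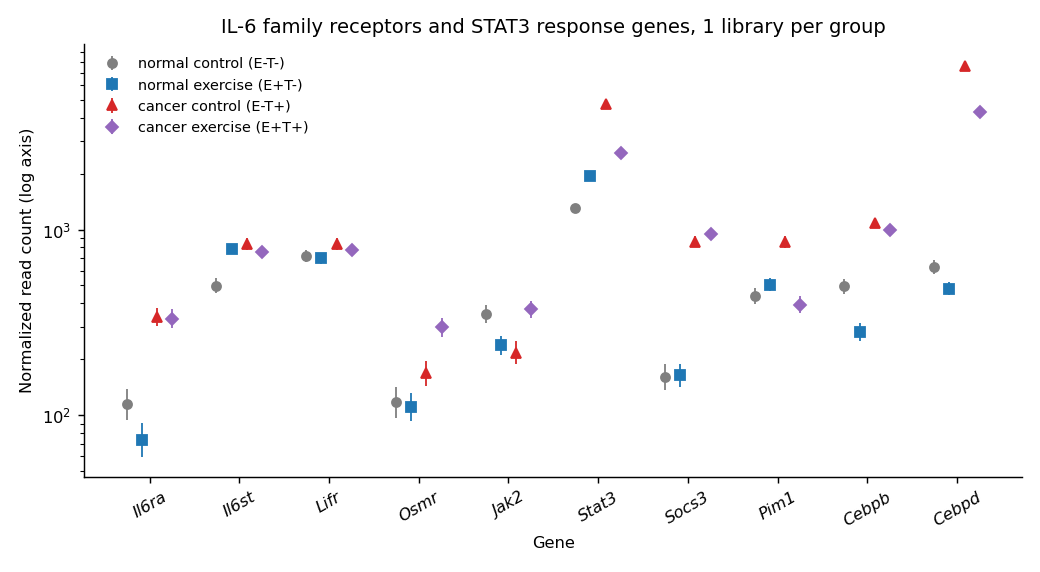
Normalized read counts (log axis) of the 10 genes, with 1 point per library and bars for the 95% counting interval. Il6ra, Socs3, Cebpb and Cebpd are higher in both tumor libraries (triangles, diamonds) than in the others, Lifr stays between 700.4 and 838, and Stat3 and Pim1 peak in cancer control.

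Jak2 encodes a tyrosine kinase bound to gp130. It had 351 normalized reads in E-T-, 238 in E+T-, 217 in E-T+ and 371 in E+T+. Normal control and cancer exercise were the high pair, normal exercise and cancer control the low pair, and within each pair the libraries differed by less than counting error. Stat3, the transcription factor of the pathway (chr11:100886806-100939594, minus strand), was at 1301 normalized reads in E-T-, 1949 in E+T-, 4743 in E-T+ and 2597 in E+T+. Every step in this order of levels exceeded counting error. Cancer control stood 1.83-fold above cancer exercise, the next library.

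Socs3 encodes an inhibitor that binds gp130 and JAK2 and is made in response to STAT3. It lies at chr11:117966079-117970336 on the minus strand. It had 161 normalized reads in E-T- and 164 in E+T-, against 859 in E-T+ and 945 in E+T+. The tumor libraries lay far above the others, and within each pair the libraries differed by less than counting error. Pim1, a serine and threonine kinase gene that STAT3 turns on, was at 437 normalized reads in E-T-, 505 in E+T-, 857 in E-T+ and 393 in E+T+. The largest step for Pim1 was the one up to cancer control, and the tumor libraries fell on either side of those without a tumor.

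Cebpb and Cebpd encode transcription factors of the acute-phase response. Cebpb was at 494 normalized reads in E-T-, 281 in E+T-, 1084 in E-T+ and 989 in E+T+. Cebpd (chr16:15887286-15889545, plus strand) was at 628 normalized reads in E-T-, 481 in E+T-, 7648 in E-T+ and 4281 in E+T+. For both, the tumor libraries were above the others and normal exercise was the lowest. The range of Cebpd, 15.9-fold between its lowest and highest library, was the widest of the 10 genes, followed by 5.85-fold for Socs3 and 4.53-fold for Il6ra.

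The first comparison asked what running changes in the muscle of healthy mice, as normal exercise against normal control. None of the 10 genes differed 2-fold, against 9.44% of 14518 genes that were at least 2-fold higher and 12.1% that were at least 2-fold lower. Those shares include genes with far fewer reads than the members. Among 13197 genes with at least 16 normalized reads in any library they were 6.88% and 9.06%. The differences beyond counting error were those of Il6st, which was 1.58-fold higher (log2 0.66, 95% counting interval 0.50 to 0.82), Stat3, which was higher by 0.58 (0.48 to 0.68), Pim1, 1.16-fold higher (0.21, 0.03 to 0.39), Cebpb, 1.75-fold lower (-0.81, -1.02 to -0.61), Il6ra, 1.55-fold lower (-0.64, -1.06 to -0.22), Jak2, 1.47-fold lower (-0.56, -0.79 to -0.33), and Cebpd, 1.31-fold lower (-0.39, -0.55 to -0.22). The shared receptor chain and the transcription factor STAT3 were thus on the higher side, and the IL-6 binding chain, the kinase and both C/EBP genes on the lower side. The median log2 fold change of the 10 genes was -0.06, and that of all genes -0.01.

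The tumor without exercise was examined as cancer control against normal control. In this comparison 5 of the 10 genes were at least 2-fold higher and 0 were at least 2-fold lower. Cebpd was 12.2-fold higher (log2 3.60, 3.48 to 3.73), Socs3 5.32-fold (2.41, 2.17 to 2.68), Stat3 3.65-fold (1.87, 1.77 to 1.96), Il6ra 2.92-fold (1.54, 1.23 to 1.88) and Cebpb 2.19-fold (1.13, 0.98 to 1.30). Pim1 lay just under the threshold at 1.96-fold higher (0.97, 0.80 to 1.15), and Il6st, Osmr and Lifr were 1.67-fold, 1.43-fold and 1.16-fold higher. Jak2 was the only member with a lower value, by 1.61-fold (-0.69, -0.95 to -0.43). Many genes differed here, with 20.9% of 14818 genes at least 2-fold higher and 24.2% at least 2-fold lower. The median log2 fold change was 1.05 over the 10 genes and -0.04 over all genes, and 387 of all genes were higher by as much as Cebpd.

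The effect of running in tumor-bearing mice was examined as cancer exercise against cancer control. Pim1 was the only member past the threshold, 2.17-fold lower with exercise (log2 -1.12, -1.31 to -0.94). Stat3 was 1.83-fold lower (-0.87, -0.94 to -0.80) and Cebpd 1.79-fold lower (-0.84, -0.89 to -0.78), while Osmr was 1.77-fold higher (0.82, 0.54 to 1.12) and Jak2 1.71-fold higher (0.77, 0.52 to 1.03). Il6ra, Il6st, Lifr and Socs3 differed by less than counting error, and Cebpb, with a log2 fold change of -0.13, by barely more. Over all genes, 15.6% of 14491 were at least 2-fold higher and 15.1% at least 2-fold lower. The medians were -0.12 for the 10 genes and 0.01 for all genes.

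The tumor in exercised mice was examined as cancer exercise against normal exercise. Again 5 of the 10 genes were at least 2-fold higher and 0 were at least 2-fold lower, beside 13.9% and 16.3% of 14470 genes. Cebpd was 8.89-fold higher (log2 3.15, 3.03 to 3.28), Socs3 5.74-fold (2.52, 2.31 to 2.76), Il6ra 4.46-fold (2.16, 1.83 to 2.52), Cebpb 3.51-fold (1.81 with a lower bound of 1.63) and Osmr 2.67-fold (1.42, 1.12 to 1.73). Osmr took the place that Stat3 held without exercise, and Stat3 was 1.33-fold higher here (0.41, 0.33 to 0.50). Jak2 was 1.56-fold higher (0.64, 0.41 to 0.87), Pim1 1.28-fold lower (-0.36, -0.55 to -0.17), Lifr 1.11-fold higher (0.15, 0.01 to 0.30), and Il6st differed by less than counting error. The median was 1.03 over the 10 genes and -0.03 over all genes.

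**Figure D2:**
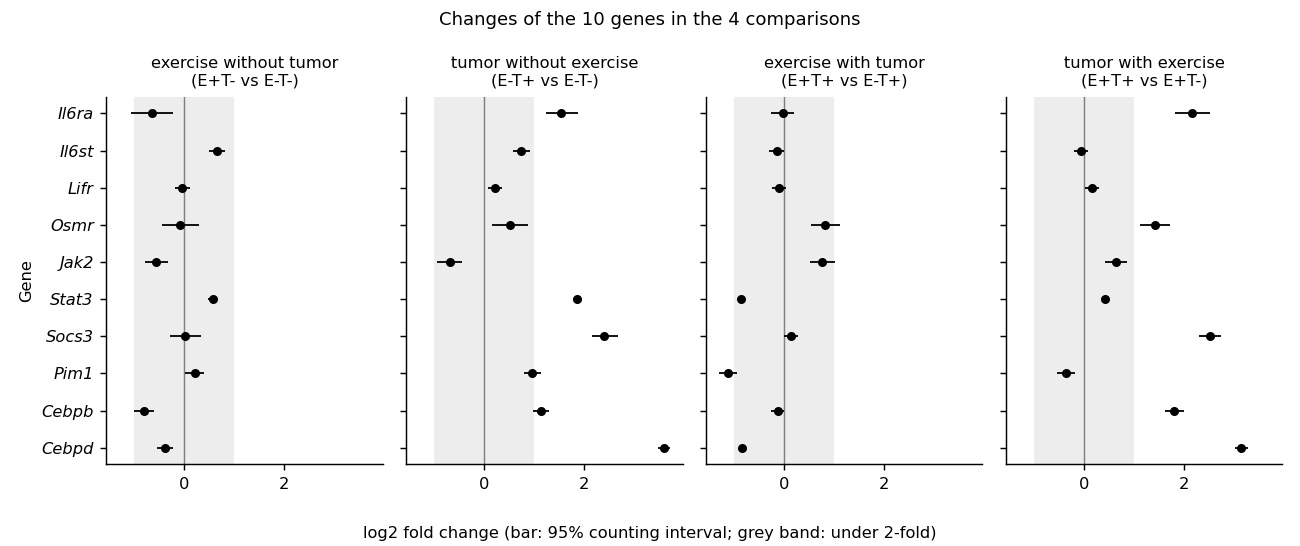
log2 fold changes of the 10 genes in the 4 comparisons, with points for the difference of the deposited values and bars for the 95% counting interval; the grey band marks less than 2-fold. In both comparisons of tumor against no tumor, 5 points lie to the right of the band, and in the comparisons of exercise only Pim1, in tumor-bearing mice, lies outside it.

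The 2 tumor comparisons share no library, and neither do the 2 exercise comparisons, while every tumor comparison shares a library with every exercise comparison. Il6ra, Socs3, Cebpb and Cebpd were at least 2-fold higher in each tumor library than in each library without a tumor. These 4 of 10 genes stood beside 5.22% of 15485 genes that met the same condition and 6.36% that met it in the opposite direction. For Cebpb the smallest of these differences, between E+T+ and E-T-, was at the threshold itself, and with the reads of the overlapping gene Tmem189 subtracted it was 0.98 on the log2 scale, which leaves 3 of 10 genes. With Lifr, Osmr and Stat3 added, 7 of the 10 genes had both tumor libraries above both others by any amount, beside 26.7% of all genes. The tumor effect was 0.11 larger on the log2 scale with exercise than without for Socs3, 0.61 larger for Il6ra, 0.68 larger for Cebpb and 0.90 larger for Osmr. For Cebpd it differed by -0.45, for Il6st by -0.80 and for Lifr by -0.06.

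Jak2, Stat3 and Pim1 differed most between these effects. The log2 tumor effect on Jak2 was -0.69 without exercise and 0.64 with it, a difference of 1.33. That on Stat3 was 1.87 and 0.41, a difference of -1.45, and that on Pim1 was 0.97 and -0.36, a difference of -1.33. Stat3 and Pim1 were thus highest in the tumor-bearing mouse muscle that had not been exercised, and Jak2 was lowest there, although its level in normal exercise was within counting error of that. With 1 library in each group these differences of effects could not be tested.

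**Figure D3:**
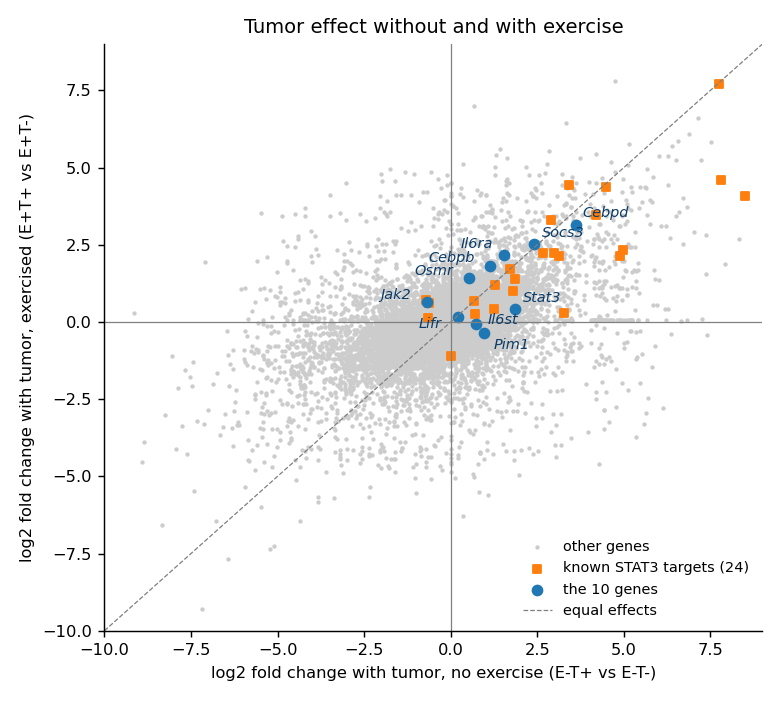
log2 fold change with the tumor in unexercised mice (x axis) against that in exercised mice (y axis) for all genes in grey, the 24 counted known STAT3 targets as squares and the 10 genes as labeled circles; the dashed line marks equal effects. Socs3 and Cebpd lie near the line at the upper right, Stat3 and Pim1 lie below the line, and Jak2 lies above it on the left.

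The members were set beside other genes of the pathway, counted where any library reached 16 normalized reads. On that footing 18.6% of 13197 genes were at least 2-fold higher and 22.1% at least 2-fold lower with the tumor without exercise, and 11.8% and 13.5% with exercise. Among 25 genes widely known as STAT3 targets, 24 were counted, from a list chosen with earlier results of these data known. Saa1, Saa2 and Myc reached 16 normalized reads only in tumor libraries, so they could not have been lower with the tumor. Pim2 reached that minimum only in normal exercise, so it could not have been higher with the tumor in exercised mice. With the tumor, 18 were at least 2-fold higher and 0 lower without exercise, and 16 were higher and 1 lower with exercise, with median log2 fold changes of 2.78 and 1.93. In 12 of the 24, each tumor library was at least 2-fold above each library without a tumor, beside 4.88% of the 13197 genes. With exercise in tumor-bearing mice 1 of the 24 was at least 2-fold higher and 11 were lower, with a median of -0.80, beside 13.6% and 11.9% of all genes. With exercise without a tumor 4 were higher and 6 lower, with a median of -0.19, beside 6.88% and 9.06%. The higher ones include Saa2, on 0 and 2 reads, and the lower ones Saa1, on 3 and 0 reads. Neither reached 4 normalized reads in a library of that comparison, so by the rule used for the members they would not count as changed. Medians were the same when genes at 0 reads in a library were set to the bound that 3 reads allow. For exercise without a tumor 1 gene was set to its bound, and 2 with too few reads for a bound were left out.

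The target genes with the largest differences in cancer control were Saa2, Lcn2, Saa1 and Fgb. Lcn2, an iron-scavenging protein of the acute phase, had 5.37 normalized reads in E-T-, 26.6 in E+T-, 1434 in E-T+ and 669 in E+T+. Fgb, a fibrinogen chain, was at 29.8, 7.14, 959 and 40.2 in the same order. Lcn2 was therefore high in both tumor libraries, and Fgb in cancer control. Saa1 and Saa2 encode serum amyloid A proteins and are near-identical copies between which reads could have been split, so their separate values are uncertain. Saa1 had 3, 0, 848 and 191 reads and Saa2 had 0, 2, 355 and 38. If the reads are taken as assigned, Saa2 was at least 119-fold higher in cancer control than in normal control, with 3 reads per library as the floor. That bound does not hold if reads moved between the 2 copies. Fibrinogens and serum amyloid A are known chiefly as products of the liver. The summed level of 5 hepatocyte markers was 508 in E-T-, 139 in E+T-, 993 in E-T+ and 158 in E+T+, so that, as for Fgb, cancer control was the highest and normal exercise the lowest, and its part in the values of these genes was not tested. Keratinocyte markers were also highest in cancer control, with 852 against 95.7 to 245 elsewhere. Flg2, Dsp and Lor had 148, 133 and 199 reads there and at most 4 in any other library. Krt10 was more even, with 181, 236, 204 and 76 reads in the order above. The part of keratinocyte or hepatocyte RNA in the values of the members in cancer control was not tested. Lcn2 is a product of neutrophils too, whose markers are given above.

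**Figure D4:**
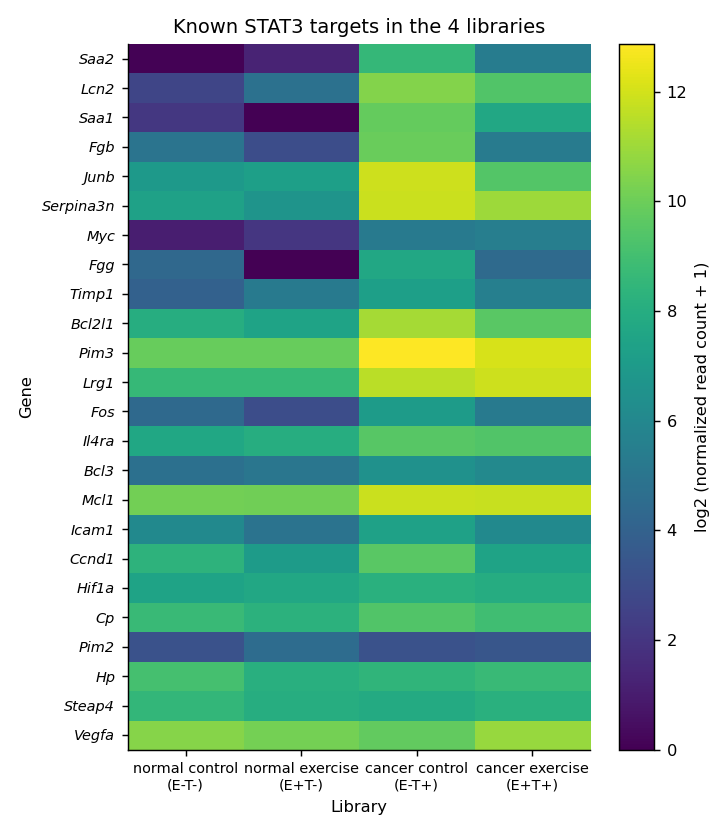
log2 (normalized read count + 1) for the 24 counted known STAT3 targets (rows, ordered by their difference between cancer control and normal control) in the 4 libraries (columns). Most rows of the upper part are brighter in both tumor columns, Fgb and Fgg are bright mainly in cancer control, and rows near the bottom such as Steap4 and Vegfa show no such pattern.

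**Figure D5:**
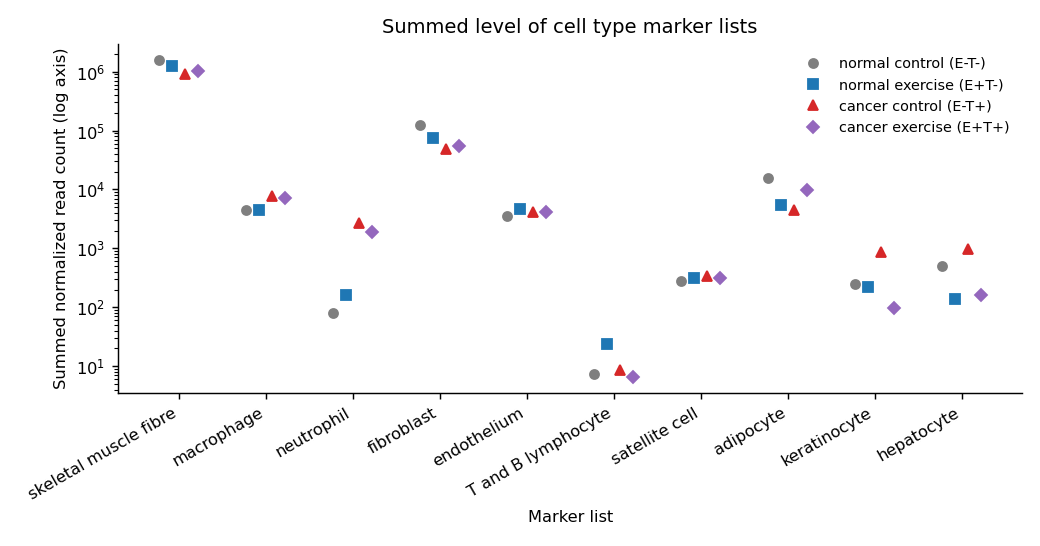
Summed normalized read counts (log axis) of 10 lists of cell type markers, with 1 point per library. Neutrophil markers sum to 80.1 and 163 without a tumor and to 2653 and 1888 with it, while hepatocyte and keratinocyte markers are highest in cancer control.

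Of the 11 ligand genes of the family, 6 had few or no reads in the muscle itself. Il6 had 3 reads in cancer control and 0 elsewhere, Osm had 0, 3, 5 and 0 reads, Lif had 1, 1, 0 and 0, and Il11 had 0, 5, 0 and 0, in the order E-T-, E+T-, E-T+ and E+T+. Ctf2 and Il27 had 0 reads in every library. A difference between libraries in these ligands was therefore not detectable at this depth, while the receptor chains that answer to them, Il6ra and Osmr, were read 91 times or more in each library. The other 5 were counted, and with the tumor without exercise 1 was at least 2-fold higher and 2 lower, beside 18.6% and 22.1% of 13197 genes. The higher one was Clcf1, which reached 16 normalized reads only in cancer control. With the tumor in exercised mice 2 were at least 2-fold higher, Clcf1 and Ebi3, and 0 lower, beside 11.8% and 13.5%. Cntf, ciliary neurotrophic factor, had the most reads of the ligands and was at 165 normalized reads in E-T-, 75.3 in E+T-, 255 in E-T+ and 105 in E+T+. It was lower with exercise beyond counting error, by 1.12 on the log2 scale without a tumor (-1.52 to -0.75) and by 1.27 with one (-1.63 to -0.93), and it was chosen for description after its values were seen. Clcf1, a cytokine that acts through the ciliary neurotrophic factor receptor, was at 4.30, 2.29, 30.9 and 13.0 normalized reads, on 29 reads at most. Ebi3, a subunit shared by several cytokines, was at 24.4, 7.99, 4.34 and 23.8, and Ctf1, cardiotrophin 1, at 65.9, 36.4, 35.4 and 34.7. The tumor libraries overlapped the others for Ebi3 and were lower than both for Ctf1, by little against normal exercise.

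The other receptor chains of the family did not share the higher level of Il6ra. Of 5 genes 3 were counted, and 0 were at least 2-fold higher with the tumor while 2 were lower without exercise and 1 with it. Il11ra1, which binds IL-11, was at 3734 normalized reads in E-T-, 3269 in E+T-, 1509 in E-T+ and 1893 in E+T+, so both tumor libraries were lower. Cntfr, which binds ciliary neurotrophic factor, was at 53.1, 42.2, 23.6 and 7.65, again lower in both. Il11ra2 is a near copy of Il11ra1 and its reads may not be separate, and it was at 134, 122, 89.9 and 102.

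Among the other Janus kinases and STATs, 8 of 9 were counted. With the tumor 1 was at least 2-fold higher and 2 lower without exercise, and 1 was higher and 0 lower with it, with medians of -0.21 and -0.17. Stat2, a transcription factor of interferon signaling, was at 93.5 normalized reads in E-T-, 49.4 in E+T-, 34.3 in E-T+ and 75.8 in E+T+. Jak3, a kinase of lymphoid cytokine receptors, was at 17.1, 18.5, 43.9 and 50.8, higher in both tumor libraries on at most 47 reads. Tyk2, a kinase that also serves gp130, was at 89.3, 47.8, 49.3 and 47.7, with normal control as the high library.

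All 15 other brakes on JAK-STAT signaling were counted, and with the tumor without exercise 2 were at least 2-fold higher and 2 lower, with a median of 0.06. With exercise 2 were higher and 0 lower, with a median of -0.04. Socs3 was 2.41 and 2.52 higher on the log2 scale while the median brake was near 0. The 2 brakes that were higher with exercise were relatives of Socs3, Cish by 3.36 and Socs2 by 1.78. A higher level with the tumor was thus not particular to Socs3 in exercised mice. Without exercise Cish was lower by 2.18 and Socs2 by 0.11. Cish, a SOCS family member that STAT5 turns on, was at 1341 normalized reads in E-T-, 50.1 in E+T-, 296 in E-T+ and 523 in E+T+. Its low library was normal exercise, where Socs3 was level with normal control. Pias4, an inhibitor of STAT binding, was at 25.6, 29.1, 106 and 28.2, and Ptpn2, a phosphatase that acts on Janus kinases and STATs, at 166, 233, 409 and 256, both highest in cancer control as Stat3 was. Ptpn6, a phosphatase mostly of blood cells, was at 55.3, 62.5, 16.1 and 42.3, lowest there.

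Of 5 other genes listed by C/EBP symbol or family, 4 were counted. With the tumor 0 were at least 2-fold higher, while 1 was lower without exercise and 0 with it. Cebpa, which drives fat cell and liver gene programs, was at 314 normalized reads in E-T-, 157 in E+T-, 105 in E-T+ and 129.96 in E+T+. Cebpa was therefore lowest where Cebpb and Cebpd were highest. The summed level of 5 adipocyte markers was 15720.1 in E-T-, 5452 in E+T-, 4540 in E-T+ and 9951 in E+T+, with all 5 at least 2-fold lower with the tumor without exercise, and its part in the values of Cebpa was not tested. Cebpz, listed for its symbol only, was at 497, 666, 962 and 894. Ddit3, a C/EBP of the cell stress response, was at 459, 1049, 811 and 601, and Cebpg at 827, 937, 597 and 992.

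Sequence just upstream of the start sites was searched for the letters of a STAT site (TTCNNNGAA), its narrower STAT3 form (TTCCNGGAA, a special case of the former) and a C/EBP site (TTGCNNAA), on both strands of windows reaching from 250 bases before to 50 bases after each RefSeq start. RefSeq windows of the GRCm38.p6 assembly matched 9 of the 10 members (Cebpd was not among them) with 11 windows, and 22 of the 25 targets with 26 windows. Among the members only Socs3 held the STAT letters, in 1 of 11 windows, compared with 8.30% of all 32851 windows, and no member window held the other letters. Among the targets 4 of 26 windows held the STAT letters, 3 of 26 the STAT3 form (1.15% of all windows) and 8 of 26 the C/EBP letters (10.8% of all windows). A match describes the letters and is not evidence of binding.

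The stretches below are shown because they carry these letters at Socs3 and at target genes that were at least 2-fold higher with the tumor in both comparisons. Other targets carried letters without being 2-fold higher in either comparison. Steap4 held all of these letters, with log2 tumor effects of -0.66 without exercise and 0.14 with it. The C/EBP letters were also found at Cp (0.67 and 0.66) and Pim2 (0.01 and -1.10). Fga held all of the letters but had too few reads to be counted. Whether the letters go with the tumor difference was not tested. Each stretch shown is written 5′ to 3′ on the strand of its gene, with the matched letters in capitals and 10 flanking bases on either side.
Socs3 STAT letters, chr11:117969502-117969530, minus strand: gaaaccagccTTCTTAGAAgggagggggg
Icam1 STAT3 form, chr9:21015888-21015916, plus strand: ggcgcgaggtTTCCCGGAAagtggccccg
Fgb STAT letters, chr3:83050007-83050035, minus strand: gactcaatgaTTCGAGGAAccccctgtgt
Fgb C/EBP letters, chr3:83049926-83049953, minus strand: tgggaagatgTTGCTCAAatgataaagc
Lcn2 C/EBP letters, chr2:32387938-32387965, minus strand: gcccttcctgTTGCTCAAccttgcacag
Saa1 C/EBP letters, chr7:46743145-46743172, minus strand: tgtgctcccaTTGCACAAtgagggagaa
Saa2 C/EBP letters, chr7:46751640-46751667, plus strand: tgtgctcccaTTGCACAAtgagggaaaa

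The Socs3 match begins 154 bases upstream of the RefSeq start used. It lies inside the annotated Socs3 gene but in no GENCODE exon, because a longer transcript starts farther upstream, and GENCODE puts its nearest other start 85 bases upstream of the RefSeq one. The Icam1 and Fgb matches lie upstream of their genes and overlap no annotated exon, the Lcn2 match overlaps an exon of a longer Lcn2 transcript, and the Saa1 and Saa2 matches overlap no GENCODE gene, although RefSeq extends Saa1 over its match. Icam1, an adhesion molecule, was at 67.0 normalized reads in E-T-, 29.0 in E+T-, 165 in E-T+ and 67.2 in E+T+, so it was high in cancer control, while cancer exercise and normal control were alike within counting error.

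Profiles like those of Stat3 and Socs3 were looked for among 9323 genes with a mean of at least 64 normalized reads, by the Euclidean distance between log2 values centered over the 4 libraries. Nearest to Stat3 were Usp39 (distance 0.061), H3f3b (0.079) and Slc20a1 (0.101). For 761 genes the centered log2 value was within 0.5 of that of Stat3 in every library. Nearest to Socs3 were Mknk2 (0.195), Tango2 (0.202) and Sbno2 (0.302), and 38 genes were within 0.5 of Socs3 in every library. Mknk2, a kinase gene of the MAP kinase pathway, was at 1664 and 1699 normalized reads without a tumor and at 9158 and 8456 with it, without and with exercise in each case. By this count the profile of Stat3 was a common one and that of Socs3 less so, over 4 libraries in each case. The range of Socs3 was also the wider, 2.55 against 1.87 on the log2 scale.

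Some reads of the members may belong to genes that overlap them, since the handling of strand is not given in the sources used here. The end of Stat3 overlaps Stat5a, an exon of Tmem189 lies over Cebpb, and an exon of Spidr reaches over the end of Cebpd. Spidr had 30, 72, 1027 and 172 reads in the order E-T-, E+T-, E-T+ and E+T+, so it was high in the same library as Cebpd. With the reads of the overlapping gene subtracted, the log2 tumor effects without and with exercise were 3.45 and 3.27 for Cebpd, 1.02 and 1.92 for Cebpb, and 1.96 and 0.46 for Stat3, and no 2-fold call of the 4 comparisons changed. Il6ra and Pim1 overlap an annotated antisense RNA each, for which no row was given.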

How the data were processed

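Per the labels and the study's methods, RNA was extracted with Trizol and libraries were prepared with the Lexogen QuantSeq 3′ kit. The authors aligned reads with Bowtie2, counted them with bedtools coverage and applied quantile normalization in R; mm10 is named in the submitters' processing notes, and tool versions are not given in the sources used here. Deposited values are on a log2 scale, log2 (normalized read count + 1), in 23282 rows (23238 distinct symbols). Reads per gene were rebuilt by fitting the negative binomial quantile adjustment (dispersion 0.339, 1 scaling factor per library). This placed 100% of the deposited log2 values within 0.0006 of a whole number of reads, and tied 35 of 40 member values to a single count, the widest range being 5 reads. Fold changes are differences of deposited log2 values and so carry a pseudocount of 1, which understates low genes. Intervals are 95% Clopper-Pearson intervals on the rebuilt reads. The steps were tested on simulated data.

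Depth was 10647511 to 13226143 reads per library. Groups came from the sample titles. With 1 library per group, no test was run. The members, gene lists and settings were chosen with earlier results of these data known. Named genes are the 10 members, up to 4 genes per list with the largest absolute log2 fold change for the tumor without exercise, genes at or near 0 reads, and the 3 nearest profiles to Stat3 and to Socs3. Some genes that this rule names are not reported here. S100a8, S100a9, Cntf, Icam1, Fgg, Steap4, Vegfa and Socs2, genes overlapping members, and marker genes named singly were chosen after their values were seen. Coordinates and sequences are from RefSeq (GRCm38.p6) and GENCODE M21, which share the mm10 build. Python 3.11.15, numpy 2.4.6, scipy 1.17.1 and pandas 2.3.3 were used. Alternatives were scaling by median of ratios, by TMM or by total count, a pseudocount of 0.5 or 4, and thresholds of 1.5-fold and 4-fold. Subtraction of overlapping reads was added after seeing the data.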

Additional observations from a re-analysis of the deposited data

Results flagged for a closer look

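The effects of 3 genes pointed in opposite directions between the arms of the design, each beyond counting error, and the differences were not tested because each group had 1 library. The log2 exercise effect on Jak2 was -0.56 without a tumor (95% counting interval -0.79 to -0.33) and 0.77 with one (0.52 to 1.03), a difference of 1.33. The tumor effect on Jak2, -0.69 without exercise and 0.64 with it, differs by the same 1.33, since both are built from the same 4 libraries. The exercise effect on Stat3 was 0.58 without a tumor (0.48 to 0.68) and -0.87 with one (-0.94 to -0.80), a difference of -1.45. The exercise effect on Pim1 was 0.21 (0.03 to 0.39) and -1.12 (-1.31 to -0.94), a difference of -1.33, and its tumor effect, 0.97 without exercise and -0.36 with it, likewise differed by -1.33. All of these differences use the cancer control library, where keratinocyte and hepatocyte markers were highest. The part of such RNA in them was not tested.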

How the results depend on the processing

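No paired analysis was possible because each group had 1 library, and no library could be left out. The member counts depended on the fold threshold. At 1.5-fold, 3 members differed with exercise without a tumor, 8 with the tumor without exercise and 5 with exercise in tumor-bearing mice, beside 37.9%, 64.3% and 49.5% of all genes. At 4-fold, 2 differed with the tumor without exercise, 0 with exercise in tumor-bearing mice and 3 with the tumor in exercised mice, beside 21.4%, 14.2% and 13.5%. With overlapping reads subtracted, 3 members instead of 4 were at least 2-fold higher in both tumor libraries than in both others. The other 34 of 40 recomputed counts stayed within 1.5 times. Of 200 recomputed member fold changes, 193 stayed within their counting interval and 3 changed sign, under total-count scaling, with Lifr at 0.12 with exercise without a tumor and at -0.00 with the tumor in exercised mice, and Osmr at 0.09 with exercise without a tumor. The median of the 10 genes with exercise without a tumor moved to 0.10 under the same scaling. That scaling moved the median of all genes by 0.16 and -0.15 in these comparisons. It also moved 4 of 30 differences between tumor effects beyond their interval, to -1.03 for Il6st, -0.29 for Lifr, -1.68 for Stat3 and -0.68 for Cebpd. Depth limits the ligands Il6, Lif, Osm and Il11, with at most 5 reads in a library.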
